A study of Mus musculus with 10 samples.

Results

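Voltage-gated sodium channel subunit genes were followed in ribosome-bound RNA from Drd2-Cre cells of the dorsal and ventral hippocampus. The set comprised 8 genes, listed by symbol and found by their Ensembl identifiers among the 54838 genes counted. They were the 5 alpha subunit genes Scn1a, Scn2a, Scn3a, Scn8a and Scn9a and the 3 beta subunit genes Scn2b, Scn3b and Scn4b, and all 8 passed the filter on low counts that left 16806 tested genes. The libraries were 5 dorsal and 5 ventral precipitates made by translating ribosome affinity purification (TRAP), in which ribosomes carrying the EGFP-tagged protein L10a are pulled down with the RNA bound to them. Every library, dorsal or ventral, came from C57BL/6 mice about 10 weeks old with the genotype MC-TRAP (Drd2-Cre;Eef1a1LSL.eGFPL10a/+), so all mice carried both the Cre driver and the tagged ribosomal gene. Each library was a pool of the hippocampal tissue of 5 mice, and a replicate is therefore a pool, not a mouse. The groups are labelled as mossy cells, the glutamatergic neurons of the dentate hilus, but Drd2-Cre also labels scattered GABAergic interneurons and neurons of the ventral subiculum, the site of which was dissected away. The hippocampi of the same mice were divided into dorsal and ventral parts, so both groups came from 1 set of mice, and whether equally numbered pools share mice is not given in the sources used here.

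A voltage-gated sodium channel has a large pore-forming alpha subunit with 4 homologous domains and usually 1 or more beta subunits, which are single-span membrane proteins with an immunoglobulin-like fold. Depolarization opens the pore and carries the upstroke of the action potential, and a cytoplasmic loop between the last domains then plugs it within milliseconds, which is called fast inactivation. In central neurons Nav1.1, Nav1.2 and Nav1.6 (Scn1a, Scn2a and Scn8a) carry most of the current, and the beta subunits tune gating, surface delivery and adhesion.

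The alpha subunit genes are alike in sequence, which bears on how short reads are assigned to them. Of the stretches of 50 bases in the transcripts of each gene, the share also present in another sodium channel gene was 4.03% for Scn1a, 5.62% for Scn2a, 6.49% for Scn3a, 4.04% for Scn9a and 0.0374% for Scn8a, and it was 0 for the 3 beta genes. When genes of any kind were counted, 1.01% of the stretches of Scn2b were shared, and 0 of those of Scn3b and Scn4b. The files list 0 reads as not uniquely aligned, and how such reads were handled is not given in the sources used here. Reads from the shared stretches of the alpha genes and of Scn2b are therefore uncertain. Exons of the members overlapped no other annotated gene, apart from 180 bases of Scn9a (1.41% of its exonic length) that face the antisense gene Gm13629. Whether the counting used strand is not given in the sources used here, and for Scn9a those reads cannot be told apart.

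Scn1a, Scn2a, Scn3a and Scn9a lie in a cluster on chromosome 2, with Scn3a at chr2:65457118-65567627, Scn2a at chr2:65620771-65767447, Scn1a at chr2:66270778-66440840 and Scn9a at chr2:66480080-66634962. Scn8a is on chromosome 15 at chr15:100869858-101045938. The 3 beta genes are on chromosome 9, with Scn2b at chr9:45117782-45130070 and Scn4b next to it at chr9:45138395-45154152, and Scn3b at chr9:40269217-40291618.

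Counts on genes ranged from 11138676 to 20594364 per library, and 3 counts, taken as the floor of detection, correspond to 0.146 to 0.269 CPM, the counts scaled to library size. This floor covers counting error alone. The label was checked against markers. The mossy cell list summed to 1741 to 2053 CPM in the dorsal and 1662 to 1941 CPM in the ventral libraries, with 8 of its 9 genes tested, 2 called dorsal and 1 called ventral, while the list of GABAergic interneuron markers summed to 3365 to 4504 CPM in the dorsal and 4069 to 5359 CPM in the ventral libraries, with all 9 tested, none called dorsal and 3 called ventral. The libraries thus held RNA of interneurons beside that of mossy cells. Astrocyte and oligodendrocyte markers were higher in the dorsal libraries: the 6 astrocyte genes summed to 1834 to 2088 CPM in dorsal against 660 to 1212 CPM in the ventral libraries, with 4 called dorsal and 1 called ventral, and the 7 oligodendrocyte genes summed to 2440 to 2908 CPM against 906 to 1725 CPM, with 4 called dorsal. Of all tested genes 15.7% were called dorsal and 9.85% ventral. None of these markers was at 0 in all libraries. The share of read pairs on no gene was also higher in dorsal (21.8% to 33.9%) than in the ventral libraries (11.6% to 19.3%), as was the summed level of mitochondrially encoded mRNA (2692 to 3493 against 437 to 1209 CPM). The part of these differences in the sodium channel results below was not tested. In pooled precipitates, fewer cells of a type and less RNA per cell cannot be told apart.

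Calb2, which encodes calretinin and marks ventral mossy cells in the mouse, was at 65.2 ± 9.32 CPM in the dorsal and 616 ± 94.6 CPM in the ventral libraries (SD, n = 5 each), but the known calretinin gradient had guided where the tissue was cut. Cyp26b1, a retinoic acid-degrading enzyme, was at 60.5 ± 7.43 CPM in the dorsal and 28.9 ± 5.30 CPM in the ventral libraries and was called dorsal. Drd2 itself, the source of the Cre driver, was at 28.1 ± 3.96 and 20.7 ± 4.36 CPM and missed the test (edgeR adjusted p = 0.0517).

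Dorsal and ventral libraries were compared gene by gene with edgeR's quasi-likelihood test, and a gene was called when its adjusted p, over all tested genes, was below 0.05 and the absolute log2 ratio of mean CPM plus 1 was above 0.58. Of the 8 members, 2 were called dorsal (Scn3b and Scn4b) and none ventral, while 15.7% of all tested genes were called dorsal and 9.85% ventral. The call of Scn4b did not hold under every alternative, as given with its values. When GC and length were corrected for, the split over all tested genes turned to 2191 called dorsal and 2751 called ventral, or 16.4% ventral, and Scn3b, Scn4b (both dorsal) and Scn9a (ventral) were the members called. By the adjusted p alone, 4 members were higher in the dorsal libraries (Scn8a, Scn2b, Scn3b and Scn4b), where 19.0% of tested genes were, and none in the ventral libraries, where 14.6% were. Dorsal and ventral libraries did not overlap at all for 3 members, Scn8a, Scn2b and Scn3b, against 18.2% of tested genes. The median fitted log2 fold change of the 8 members was 0.46, with 7 above 0 and 1 below, and that of all tested genes was -0.0044.

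**Figure D1:**
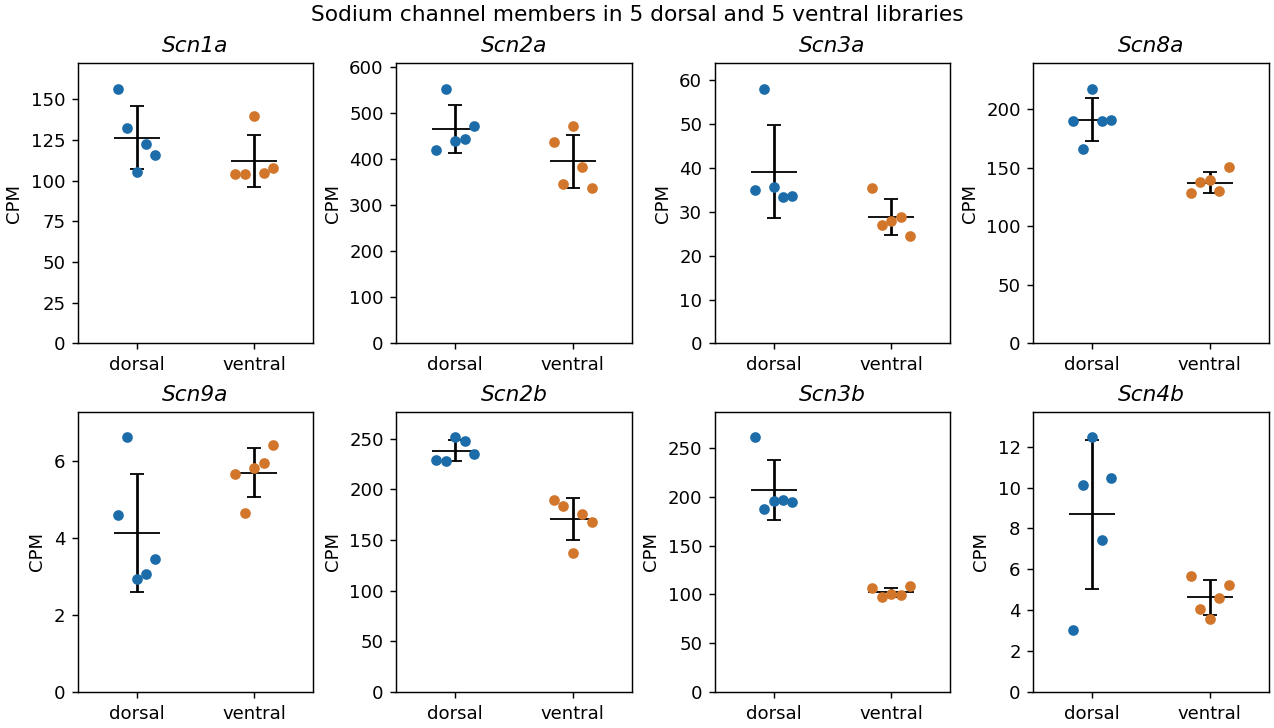
CPM of each member in the 5 dorsal (blue) and 5 ventral (orange) libraries, one panel per gene with its own axis from 0. Points are libraries and the black bar and whiskers are the mean and SD. The groups are apart for Scn8a, Scn2b and Scn3b, and Scn4b has 1 dorsal library below all ventral ones.

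Among the alpha subunits, Scn2a (Nav1.2, a channel of the axon initial segment of excitatory neurons that is prominent early in development) stood at 420, 554, 440, 444 and 473 CPM in the dorsal libraries 1 to 5 and at 438, 347, 473, 383 and 337 CPM in the ventral libraries 1 to 5. The groups overlapped, and the log2 fold change was 0.24 ± 0.11 (SE; edgeR adjusted p = 0.120).

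Scn1a (Nav1.1, which supports firing of parvalbumin interneurons in particular) gave 156, 132, 105, 123 and 116 CPM in the dorsal and 104, 104, 140, 105 and 108 CPM in the ventral libraries. Only ventral replicate 3 was high within its group, and the log2 fold change of 0.17 ± 0.13 did not pass the test (edgeR adjusted p = 0.310).

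Scn8a (Nav1.6, the main channel of mature axon initial segments and nodes of Ranvier) gave 190, 166, 218, 190 and 191 CPM in the dorsal libraries and 128, 138, 140, 130 and 151 CPM in the ventral libraries. Every dorsal library lay above every ventral one. The means of 191 ± 18.2 and 137 ± 8.86 CPM (SD, n = 5 each) differed 1.39-fold, a log2 fold change of 0.48 ± 0.098 (SE; edgeR adjusted p = 0.00289), while the log2 ratio of mean CPM plus 1, 0.473, stayed under the fold threshold.

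Scn3a (Nav1.3, mainly a channel of developing neurons) was lower, at 34.9, 58.1, 35.8, 33.5 and 33.6 CPM in the dorsal and 35.5, 26.9, 28.03, 28.9 and 24.5 CPM in the ventral libraries. Its dorsal mean was raised by replicate 2, and the groups overlapped through ventral replicate 1. The log2 fold change of 0.45 ± 0.18 missed the test (edgeR adjusted p = 0.0657). It was 0.26 without dorsal replicate 2 (edgeR adjusted p = 0.165), while the adjusted p was 0.0428 without ventral replicate 1, 0.0461 with upper-quartile scaling and 0.0398 by DESeq2, each short of the fold threshold.

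Scn9a (Nav1.7, best known from sensory neurons) had the lowest mean CPM of the members in the dorsal libraries, with 43 to 102 counts. In the ventral libraries it had 53 to 136 counts, and Scn4b was sparser there, with 42 to 111. It was at 4.61, 6.63, 2.93, 3.06 and 3.46 CPM in the dorsal and 5.66, 4.67, 5.83, 5.95 and 6.42 CPM in the ventral libraries, with dorsal replicate 2 the highest of all 10. The log2 fold change was -0.49 ± 0.28 (SE; edgeR adjusted p = 0.185), and Scn9a was the only member with a value below 0. Correcting for GC and length brought it past the thresholds, at -0.78 with an edgeR adjusted p of 0.0327, or -0.64 relative to the median of all genes in that fit. The fold threshold was there applied to the fitted log2 fold change. Without dorsal replicate 2 the fitted value of Scn9a was -0.75 (edgeR adjusted p = 0.0376). It was short of the fold threshold on mean CPM plus 1, the measure used in that fit, so these 2 outcomes rest on different fold measures.

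The beta subunits were all above 0, and all 3 passed the adjusted p. Scn3b, a non-covalently bound subunit that shifts inactivation, was at 261, 187, 196, 197 and 195 CPM in the dorsal and 106, 96.8, 101, 99.6 and 108 CPM in the ventral libraries. The lowest dorsal library was well above the highest ventral one, and dorsal replicate 1 stood apart from the other dorsal libraries. The means of 207 ± 30.4 and 102 ± 4.79 CPM (SD, n = 5 each) differed 2.03-fold, a log2 fold change of 1.01 ± 0.11 (SE; edgeR adjusted p = 3.96e-05). Leaving out any 1 library gave log2 fold changes from 0.92 to 1.05, the lowest without dorsal replicate 1, and Scn3b was called in all 24 alternatives computed.

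Scn2b, a subunit linked to the alpha subunit by a disulfide bond and involved in surface delivery, gave 229, 228, 251, 248 and 234 CPM in the dorsal libraries and 189, 183, 137, 176 and 168 CPM in the ventral libraries. The groups did not overlap. The means were 238 ± 10.7 and 171 ± 20.5 CPM (SD, n = 5 each), 1.40-fold apart, with a log2 fold change of 0.48 ± 0.10 (SE; edgeR adjusted p = 0.00314) and a log2 ratio of mean CPM plus 1 of 0.479, under the fold threshold.

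Scn4b, also disulfide-linked and known for its link to resurgent sodium current in other neurons, was at 3.01, 10.1, 12.5, 7.45 and 10.5 CPM in the dorsal and 5.66, 4.05, 3.55, 4.62 and 5.24 CPM in the ventral libraries. Dorsal replicate 1 was the lowest of all 10 libraries, with 32 counts, while the other 4 dorsal libraries exceeded every ventral library. The means of 8.70 ± 3.65 and 4.62 ± 0.858 CPM (SD, n = 5 each) differed 1.88-fold, a log2 fold change of 0.90 ± 0.31 (SE; edgeR adjusted p = 0.0348). This call lay near the threshold. It was kept without dorsal replicate 1 or 4 or ventral replicate 1, and lost when any other library was left out, with edgeR adjusted p-values of 0.0607, 0.0890 and 0.0776 without dorsal replicates 2, 3 and 5 and of 0.0539, 0.0608, 0.0680 and 0.0601 without ventral replicates 2, 3, 4 and 5. In those fits the log2 fold change was 0.75 to 0.96. The call was also lost with the replicate number as a block (0.86, edgeR adjusted p = 0.0727) and with the dispersions of edgeR 3 (0.91, adjusted p = 0.0575).

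**Figure D2:**
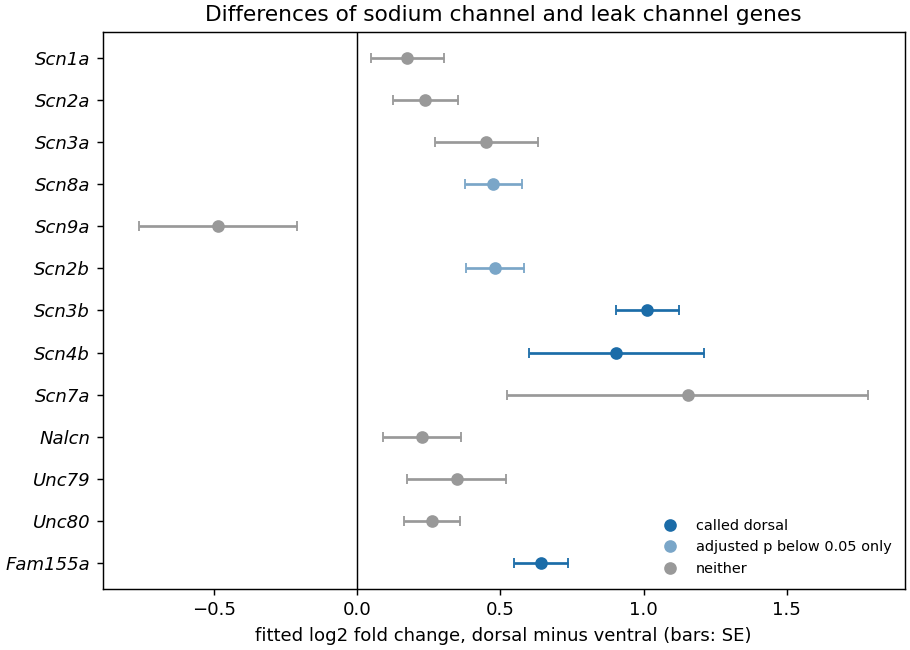
Fitted log2 fold change, dorsal minus ventral, of the 8 members and of 5 further tested sodium channel and leak channel genes, with SE bars. Scn3b, Scn4b and Fam155a passed both thresholds, Scn8a and Scn2b only the adjusted p, and Scn9a alone was below 0.

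Compared per kilobase of exonic length (RPKM, from the same scaled counts), the members spanned more than 2 orders of magnitude in the dorsal libraries. Scn2b was highest in both groups, at 51.1 ± 2.30 RPKM in the dorsal and 36.6 ± 4.40 RPKM in the ventral libraries (SD, n = 5 each). Next in the dorsal libraries came Scn3b (37.9 ± 5.57) and Scn2a (36.6 ± 4.13), whose ranges over libraries overlapped, so that their order is not beyond the spread. In ventral libraries Scn2a (31.1 ± 4.59) came second, with a range overlapping that of Scn2b, and Scn3b (18.7 ± 0.877) after it, below the lowest Scn2a library. Scn8a and Scn1a followed with overlapping ranges in each group, at 12.1 ± 1.15 and 11.3 ± 1.75 RPKM in the dorsal and at 8.71 ± 0.562 and 10.05 ± 1.41 RPKM in the ventral libraries. Scn3a (3.14 ± 0.854 dorsal and 2.31 ± 0.328 ventral), Scn4b (1.75 ± 0.733 and 0.928 ± 0.172) and Scn9a (0.324 ± 0.121 and 0.447 ± 0.0505) were lowest in that order, without overlap between neighbours. The level depends on the length used. With the longest annotated transcript in place of all exons, Scn2a ranked first in both groups, at 52.2 RPKM dorsal and 44.3 RPKM ventral. The dorsal ranges of Scn2a, Scn2b and Scn3b overlapped, as did the ventral ranges of Scn2a and Scn2b. In neither group was this first rank beyond the spread. The dorsal ranges of Scn4b and Scn9a then overlapped too.

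**Figure D3:**
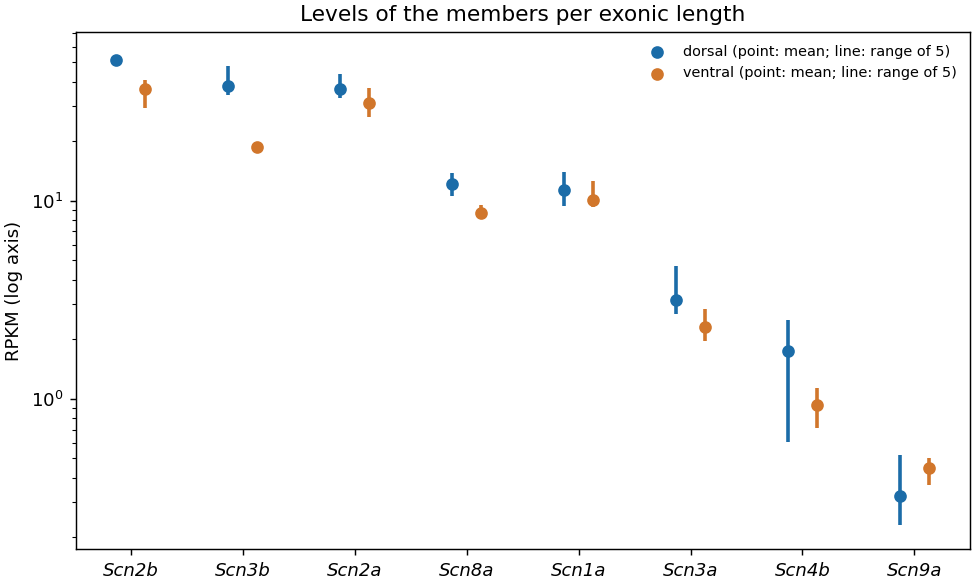
RPKM on a log axis for each member in dorsal (blue) and ventral (orange) libraries, with points at the mean and lines over the range of 5 libraries. Scn3b lies beside Scn2a in the dorsal libraries and below it in ventral ones.

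The make-up of the subunit pool was compared within each library, which does not depend on how libraries are scaled. Each member's reads per kilobase were divided by the sum over the 5 alpha or the 3 beta members, and 6 ratios between members were formed. The 14 differences were tested by two-sided exact permutation, for which the smallest possible p with 5 against 5 libraries is 0.00794.

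Among the alpha members Scn2a made up 57.5 ± 3.08% of the pool in the dorsal and 58.9 ± 2.93% in the ventral libraries (SD, n = 5 each), Scn8a 19.2 ± 2.81% and 16.7 ± 2.30%, Scn1a 17.9 ± 2.78% and 19.1 ± 1.42%, and Scn3a 4.90 ± 0.942% and 4.40 ± 0.562%. None of these 4 shares differed beyond the spread, with adjusted p-values of 0.492, 0.333, 0.492 and 0.492 by the exact permutation test. Scn9a was 0.503 ± 0.150% of the alpha pool in the dorsal and 0.855 ± 0.126% in the ventral libraries, and no dorsal library reached the lowest ventral one (exact permutation p = 0.00794, adjusted p = 0.0278). None of the ratios between alpha members passed: the log2 ratio of Scn8a to Scn2a was higher in the dorsal libraries by 0.23 (exact permutation adjusted p = 0.333), that of Scn8a to Scn1a by 0.30 (adjusted p = 0.241) and that of Scn3a to Scn2a by 0.18 (adjusted p = 0.333).

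The beta pool had a different make-up in the 2 groups. Scn3b made up 49.0, 40.2, 38.8, 39.8 and 40.5% of the beta reads per kilobase in the dorsal libraries and 31.7, 30.6, 37.9, 32.05 and 34.9% in the ventral libraries. All dorsal libraries were above all ventral ones, though ventral replicate 3 came within 1 percentage point of the lowest dorsal library. The means were 41.7 ± 4.15% and 33.4 ± 2.96% (SD, n = 5 each; exact permutation p = 0.00794, adjusted p = 0.0278). Scn2b moved the other way, from 64.9 ± 2.95% in ventral to 56.4 ± 3.42% in the dorsal libraries, with the same p-values, and since shares of 1 pool sum to a fixed total these are not separate results. Scn4b was a small part, 1.95 ± 0.839% and 1.64 ± 0.209%, and its share did not pass (exact permutation adjusted p = 0.492).

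Scn3b relative to Scn2b was 0.737 in the dorsal and 0.514 in the ventral libraries, a difference of 0.52 on the log2 scale (exact permutation p = 0.00794, adjusted p = 0.0278). Since Scn4b was a small part of the beta pool, this ratio nearly repeats the shares of Scn3b and Scn2b and is not a separate result. All shares and ratios were adjusted together. The adjusted p-values, also that of beta to alpha members below, depend on these linked measures being counted separately. The beta members together relative to the alpha members gave log2 ratios of 0.65, 0.26, 0.60, 0.58 and 0.49 in the dorsal libraries and of 0.15, 0.27, -0.34, 0.17 and 0.24 in the ventral libraries. The groups met at dorsal replicate 2 and ventral replicate 2, and ventral replicate 3 was far below the rest. The mean log2 ratio was higher in the dorsal libraries by 0.42, or 1.33-fold (exact permutation p = 0.0159, adjusted p = 0.0444), and without ventral replicate 3 by 0.31. With 1 library left out the smallest possible p rises to 0.0159, and each of the measures named above as passing then missed an adjusted p of 0.05 in 8 of 10 such tests. It stayed under only without dorsal replicate 2 or without ventral replicate 2, and the exact permutation adjusted p reached at most 0.0556 for the shares and for Scn3b to Scn2b and 0.0889 for beta to alpha members.

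**Figure D4:**
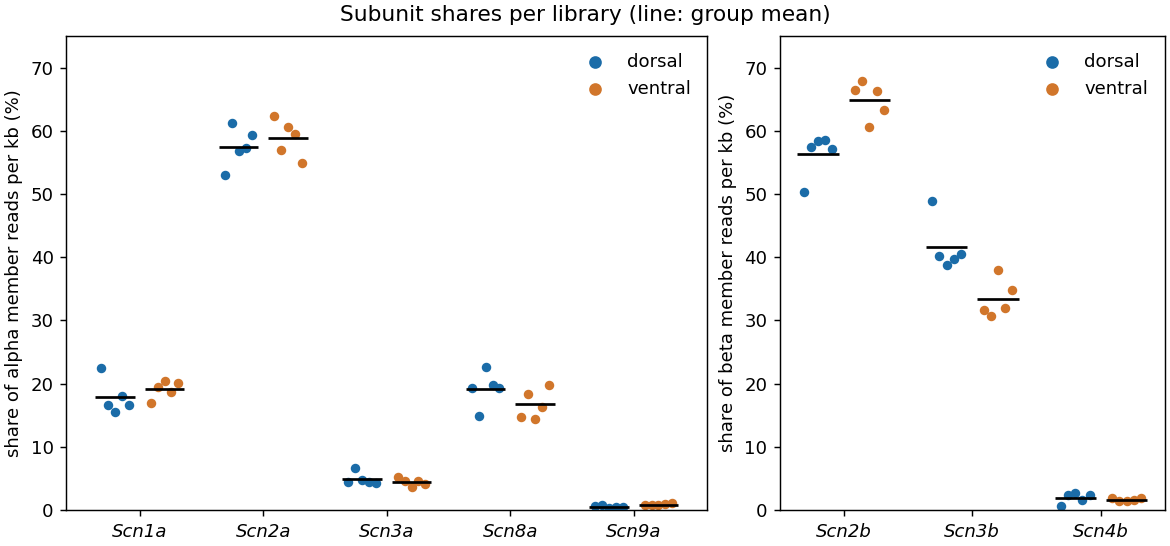
Share of each member in the alpha pool (left) and beta pool (right), in percent of reads per kilobase, for each dorsal (blue) and ventral (orange) library, with group means as lines. Scn3b and Scn2b separate the groups in the beta pool, while Scn2a holds most of the alpha pool in both.

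Of further sodium channel genes and the genes of the sodium leak channel, 8 are reported, of which 5 were tested. Of these, 1 was called dorsal and none ventral, beside the 15.7% and 9.85% of all tested genes, and all 5 fitted log2 fold changes were above 0, with a median of 0.35. Scn7a, a sodium channel relative of glia and sensory ganglia, ranged from 0.95 to 5.26 CPM in the dorsal and from 0.24 to 2.82 CPM in the ventral libraries, which overlapped (edgeR adjusted p = 0.170). Scn4a, Scn10a and Scn11a had at most 7 counts in any library and were not tested.

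The sodium leak channel, which sets resting excitability and is not gated in the same way, was represented by its pore gene Nalcn and 3 auxiliary genes. Fam155a, which encodes a subunit that helps the channel reach the membrane, was at 164, 163, 169, 166 and 177 CPM in the dorsal and 124, 104, 100, 107 and 102 CPM in the ventral libraries. The groups did not overlap, and the log2 fold change was 0.64 ± 0.094 (SE; edgeR adjusted p = 0.000335). Nalcn itself was at 71.5 ± 6.82 and 61.6 ± 11.5 CPM (edgeR adjusted p = 0.215), Unc79 at 56.2 ± 15.4 and 44.2 ± 5.09 CPM (adjusted p = 0.133) and Unc80 at 494 ± 32.4 and 412 ± 48.9 CPM (adjusted p = 0.0526), all SD over 5 libraries, and none of these passed.

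Of genes for proteins that anchor, bind or process sodium channels, 19 are reported, all tested. Of these 1 was called dorsal and none ventral, beside 15.7% and 9.85% of all tested genes, and the median log2 fold change was -0.030. By the adjusted p alone 2 were higher in the dorsal and 1 in the ventral libraries, beside 19.0% and 14.6%. The called gene was Nfasc, which encodes the adhesion molecule neurofascin of the axon initial segment and node, at 94.4, 102, 133, 117 and 123 CPM in the dorsal and 70.5, 88.8, 54.5, 78.1 and 75.1 CPM in the ventral libraries. The groups did not overlap (log2 fold change 0.63 ± 0.14, SE; edgeR adjusted p = 0.00371), but without dorsal replicate 3 or without ventral replicate 3 the ratio of means fell under the fold threshold, with fitted log2 fold changes of 0.58 and 0.55. Oligodendrocyte marker sums were also higher in the dorsal libraries, and the part of this in the values of Nfasc was not tested. The most abundant gene not called was Calm2, a calmodulin gene, at 6981 ± 900 CPM in the dorsal and 8462 ± 989 CPM in the ventral libraries (SD, n = 5 each; edgeR adjusted p = 0.0527).

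Outside the naming rule, and chosen after their values were seen, are the genes of this paragraph. Nrcam, another adhesion molecule of the axon initial segment, had a log2 fold change of 0.48 ± 0.093 (SE; edgeR adjusted p = 0.00196). When GC and length were corrected for it was 0.28, or 0.41 relative to the median of all genes, and with the block added its adjusted p was 0.0534 (edgeR). Fgf14, a fibroblast growth factor homologous factor that binds the alpha subunit's tail, was at 75.4 to 91.2 CPM in the dorsal and 97.3 to 152 CPM in the ventral libraries, a log2 fold change of -0.56 ± 0.14 (SE; edgeR adjusted p = 0.00852). The 4 factors of this family all had fitted values below 0, and of these Fgf14 passed the adjusted p. When GC and length were corrected for, Fgf14 was called ventral at -1.09 (edgeR adjusted p = 0.00022), or -0.95 relative to the median of all genes. Fgf12 and Fgf13 then passed the adjusted p at -0.58 and -0.37 (edgeR adjusted p = 0.00856 and 0.0126), or -0.44 and -0.24 relative to that median. The anchor gene Ank3 did not pass (log2 fold change 0.27, edgeR adjusted p = 0.0715). The anchor gene Sptbn4 had a log2 fold change of -2.22 (edgeR adjusted p = 0.0549), which was -0.59 without ventral replicate 2. It was called ventral without a low-count filter (edgeR adjusted p = 9.0e-05), by the likelihood-ratio test (0.00527), with the block (0.0229) and with the dispersions of edgeR 3 (0.0324).

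The sodium pump, which restores the gradient that sodium channels spend, is described by 7 of its genes, all tested. None was called dorsal and 1 was called ventral, beside 15.7% and 9.85% of all tested genes, and this was Fxyd6, which encodes a small regulatory subunit of the pump. It was at 50.9, 47.4, 70.7, 68.5 and 67.5 CPM in the dorsal and 145, 101, 104, 118 and 107 CPM in the ventral libraries, without overlap, a log2 fold change of -0.92 ± 0.15 (SE; edgeR adjusted p = 0.00054). Atp1b1, a beta subunit of the pump and the most abundant of the genes not called, was at 655 ± 42.6 CPM in the dorsal and 652 ± 88.4 CPM in the ventral libraries (SD, n = 5 each; edgeR adjusted p = 0.978). Atp1b2 and Atp1b3, named after their values were seen, passed the adjusted p in the dorsal direction but not the fold (log2 fold changes 0.54 ± 0.14 and 0.51 ± 0.10, SE; edgeR adjusted p = 0.0104 and 0.00221). Atp1b2 is also known from astrocytes, whose marker sums were higher in the dorsal libraries, and the part of this in the values of Atp1b2 was not tested.

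To place the called members among all genes, the protein-coding genes with the nearest profile over the 10 libraries were found, as the smallest root mean square difference of log2(CPM + 1) centred on each gene's own mean. Nearest to Scn3b was Ptprj, a receptor-type tyrosine phosphatase, at 72.5 ± 8.01 CPM in the dorsal and 37.5 ± 2.54 CPM in the ventral libraries, with a difference of 0.058 against a median of 0.643 over 13548 genes. Second was Atp2b1, a plasma membrane calcium pump, at 665 ± 62.8 and 358 ± 22.5 CPM, with a difference of 0.086. For Scn4b the nearest was Pkd1, which encodes polycystin-1, at 23.8 ± 9.72 and 10.7 ± 2.48 CPM (difference 0.166), all SD over 5 libraries.

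The members' differences were recomputed under 24 alternatives, among them other library scalings, other tests and each library left out. Scn3b, Scn8a and Scn2b were above 0 with an edgeR or DESeq2 adjusted p under 0.05 in every one of these. Correcting for GC and exonic length moved the median log2 fold change of all genes to -0.14. It put Scn1a at -0.063 and Scn2a at -0.0050, which relative to that median are 0.074 and 0.13, and put Scn3a at 0.15 and Scn3b at 0.89, or 0.29 and 1.02 relative to it.

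**Figure D5:**
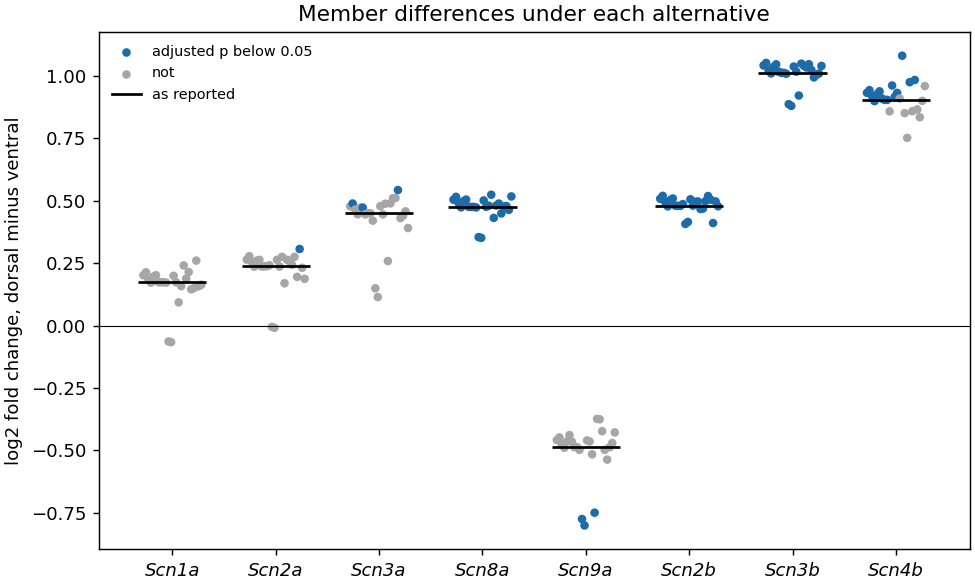
Log2 fold change, dorsal minus ventral, of each member under each of 24 alternatives (points, blue where the adjusted p is below 0.05) and as reported (black line). Scn3b stays between 0.88 and 1.05 and Scn4b between 0.75 and 1.08, while Scn1a and Scn2a fall to about 0 or below when GC and length are corrected for.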

How the data were processed

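RNA was precipitated by TRAP from dorsal and ventral hippocampal tissue of Drd2-Cre mice, 5 libraries per group, grouped by the sample labels. Per the labels and the methods, the authors amplified the RNA, sequenced paired ends of 50 bp, aligned them to GRCm38 with STAR 2.5.2b and counted them with HTSeq 0.7.2. The deposited values are raw counts per Ensembl gene, neither normalized nor filtered. The annotation release and the strand setting are not given in the sources used here. GENCODE M21 matched 54809 of 54838 identifiers.

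The counts were analysed with edgeR 4.0.16 in R 4.3.3: genes that exceeded 1 CPM in 2 or more libraries, TMM scaling, the quasi-likelihood test and Benjamini-Hochberg adjustment over all 16806 tested genes, with SE equal to the log2 fold change over the square root of F. Shares, ratios and levels used counts per kilobase of exonic length and exact permutation tests in SciPy 1.17.1. The test was checked on simulated counts. The members and gene lists were chosen with earlier results of these data known. Genes named were the members, the tested sodium channel and leak channel genes, called genes and the most abundant gene not called of the partner and pump lists, the nearest profiles of each called member, and Calb2, Cyp26b1 and Drd2, and further genes of the partner and pump lists are said in the text to have been chosen after their values were seen. Some genes of these lists and profiles are not reported here and were left out of the list counts. Further lists gave marker sums of 374.5 to 499.9 CPM dorsal and 362.6 to 509.6 CPM ventral for granule cells, 489 to 557 and 445 to 557 for pyramidal cells, 14.2 to 29.6 and 11.3 to 15.6 for the subiculum, 20.8 to 57.3 and 28.4 to 47.1 for oligodendrocyte precursors, 23.7 to 38.2 and 17.3 to 32.7 for microglia and 5.17 to 31.8 and 9.42 to 45.5 for endothelium.

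Each gene's difference was recomputed with library scaling by total counts, by upper quartiles or by DESeq2's method. Other alternatives were no filter, CPM above 1 in 5 libraries, DESeq2 1.42.0, the likelihood-ratio test, edgeR's fold for the threshold and no fold threshold. Further ones were the replicate number as a block, correction for GC content and length (mgcv 1.9.3), both together, protein-coding genes only and each library left out. With the correction, the fold threshold was applied to the fitted log2 fold change. Shares and ratios were recomputed only with the longest transcript as length, the replicate number as a block and each library left out. The correction for GC content and length was not applied to them. The quasi-likelihood dispersions of edgeR 3 were added after the data were seen. Libraries were no duplicates of each other. Replicates are pools of mice. Both groups came from the same mice, whose hippocampi were divided, but nothing says that equal numbers share mice, and the main tests treat the 10 libraries as independent.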

Additional observations from a re-analysis of the deposited data

Results flagged for a closer look

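In each group of 5, a library was marked where its gap to the nearest other library was a large part of the group's whole range (Dixon's test), which chance alone gives in about 1 in 20 groups. Of 112 groups examined 16 were marked, where 5.6 would be given by chance at that rate, although values of one library, and shares made from one another, are not independent.

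Among the members, ventral replicate 3 was highest in Scn1a at 139.9 CPM (others 104 to 108), dorsal replicate 2 in Scn3a at 58.1 CPM (others 33.5 to 35.8) and dorsal replicate 1 in Scn3b at 261 CPM (others 187 to 197). In the shares, dorsal replicate 2 had 6.56% Scn3a in the alpha pool, and dorsal replicate 1 had 50.4% Scn2b and 49.0% Scn3b in the beta pool and a log2 ratio of Scn3b to Scn2b of -0.041, against -0.59 to -0.50 in the others. Ventral replicate 3 had the lowest log2 ratio of beta to alpha members, -0.34.

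Among other genes, ventral replicate 2 stood out with 134 CPM of Sptbn4 (others 6.67 to 14.2), 187 CPM of Sptan1 (others 338 to 398) and 135 CPM of Nrcam (others 121 to 123). Ventral replicate 3 had 219 CPM of Csnk2a1, and the lowest value of Atp1b2, 48.4 CPM. Dorsal replicate 1 had 731 CPM of Atp1b1 (others 629 to 640.2). Ventral replicate 1 had 124 CPM of Fam155a and dorsal replicate 3 had 359 CPM of Fgf13.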

How the results depend on the processing

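Of the 8 members, 2 were called dorsal and 0 ventral. The dorsal count was 4 without a fold threshold and 1 with the edgeR 3 dispersions, where Scn4b missed (adjusted p = 0.0575, edgeR), and 1 to 2 with a library left out. The ventral count became 1 (Scn9a) with GC content and length correction, alone or with the replicate block. The partner genes called dorsal numbered 1, then 2 without a fold threshold and 0 to 1 with a library left out. Those called ventral numbered 0 and became 1 without a low-count filter, by the likelihood-ratio test, without a fold threshold, with the correction and with the edgeR 3 dispersions, and 0 to 3 with a library left out. The pump genes called dorsal numbered 0, became 2 without a fold threshold and 1 with the correction, alone or with the block, and 0 to 1 with a library left out. Those called ventral numbered 1, then 2 without a low-count filter and 1 to 2 with a library left out. The counts for the other sodium channel genes did not change under the 24 alternatives. Over all 16806 tested genes the calls, 2636 dorsal and 1655 ventral, also moved with the setting. They were 3191 and 2454 without a fold threshold, 2515 and 1606 by the likelihood-ratio test and 2217 and 1408 with the edgeR 3 dispersions. With the correction they were 2191 and 2751, and without a low-count filter 3158 and 1838 of 36531. With a library left out they ranged from 2105 to 2670 and from 1216 to 1815. Leaving out 1 library brought the subunit shares past the threshold from 3 to between 0 and 3 and the ratios from 2 to between 0 and 2, where 4 against 5 libraries allow no p under 0.0159.

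Under the replicate block, the members called dorsal numbered 1, Scn3b, with Scn4b no longer called (adjusted p = 0.0727, edgeR). Of all tested genes 2656 were called dorsal and 1674 ventral with the block, and 2313 and 2774 with the correction added. The partner genes called ventral numbered 1 (2 with the correction) and pump genes called ventral 2, and the shares and ratios past the threshold numbered 0, since 5 pairs allow no p under 0.0625. Correlations of equally numbered libraries' deviations were -0.0204 to 0.0426 and 1 of 5 dorsal libraries correlated best with its own number, so that the numbers are not shown to pair the samples.

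Directions turned for the following genes, none of which had passed the test. With the correction for GC content and length, and with it and the block, Scn1a went to -0.063 and -0.066, Scn2a to -0.0050 and -0.0087, Nalcn to -0.017 and -0.0097, Nedd4l to -0.14 and -0.13 and Atp1b1 to -0.13 and -0.12, and Ank3 to -0.0020 with both. Sptan1 was 0.0034 with DESeq2's size factors, 0.013 with upper-quartile factors, 0.0068 by DESeq2, 0.017 with the block and 0.00022 on protein-coding genes. Nedd4 was 0.020, 0.031 and 0.0055 with DESeq2's, upper-quartile and total-count scaling, 0.015 with the stricter filter, 0.023 by DESeq2 and 0.017 on protein-coding genes. Csnk2a1 was 0.010 with upper-quartile factors. With a library left out the ranges were -0.17 to 0.058 for Sptan1, -0.12 to 0.092 for Csnk2a1, -0.11 to 0.059 for Cntn1, -0.052 to 0.028 for Nedd4, -0.0071 to 0.21 for Nedd4l, and -0.072 to 0.052 for Atp1b1. For these turns the cause was not tested. Without a low-count filter the median of all genes was 0.11.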
